A study of Homo sapiens with 2 samples.

Results

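TFDP1, MCM3, MCM5, MCM7 and RRM2, 5 genes of the entry into S phase and of DNA replication, were followed in HepG2 cells after knockdown of TUC338. They were represented by all probe sets that the array annotation assigned to 1 of these gene symbols and to no other, 72 of the 45200 probe sets in the table and 5 of its 2792 genes. HepG2 is a human hepatoma cell line. TUC338 is a noncoding RNA that carries an ultraconserved sequence. Cells on collagen-coated plates received an LNA (locked nucleic acid, a modified oligonucleotide) directed at TUC338 in the knockdown, or a control LNA, and 1 array was hybridised for each condition. Every difference below therefore compares 2 arrays, has no replicate check and was given no test. TUC338 was named at 0 probe sets of the table, so its own level was not checked here.

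Before a cell copies its DNA, the MCM2 to MCM7 proteins are loaded at replication origins as a ring and later unwind the DNA at the fork. RRM2 is the small subunit of ribonucleotide reductase, the enzyme that makes deoxynucleotides for the new strands. Genes of both kinds are classic targets of the E2F transcription factors, which bind DNA as dimers with a DP protein, and TFDP1 encodes the partner DP1. Cyclin D with CDK4 or CDK6 phosphorylates the pocket proteins RB1, RBL1 and RBL2 and so frees E2F. In the liver these genes are known for their low expression in resting hepatocytes and their high expression in regenerating tissue and in tumours.

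The promoters are shown first because the E2F motif searched for here lies in some of them and not in others. Promoter sequences are from RefSeq, build GRCh38.p14, and those of 4 genes, TFDP1, MCM3, MCM7 and RRM2, were matched. The promoter of MCM5 was not analysed here. Each line gives the 250 bases before the first listed transcription start and the 10 bases after it, 5′ to 3′ on the strand of the gene. The windows are chr13:113584503-113584762 on the plus strand for TFDP1, chr6:52284733-52284992 on the minus strand for MCM3, chr7:100101388-100101647 on the minus strand for MCM7 and chr2:10122489-10122748 on the plus strand for RRM2. Capitals mark 2 motifs on either strand, the E2F motif, searched as TTTCCCGC, TTTCGCGC, TTTGCCGC and TTTGGCGC, and the CCAAT box.
TFDP1: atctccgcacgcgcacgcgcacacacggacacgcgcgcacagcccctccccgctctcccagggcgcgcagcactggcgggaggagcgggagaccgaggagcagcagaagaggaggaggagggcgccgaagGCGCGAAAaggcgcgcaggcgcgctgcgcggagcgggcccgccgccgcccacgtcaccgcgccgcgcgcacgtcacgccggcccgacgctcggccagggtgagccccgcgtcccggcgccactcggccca
MCM3: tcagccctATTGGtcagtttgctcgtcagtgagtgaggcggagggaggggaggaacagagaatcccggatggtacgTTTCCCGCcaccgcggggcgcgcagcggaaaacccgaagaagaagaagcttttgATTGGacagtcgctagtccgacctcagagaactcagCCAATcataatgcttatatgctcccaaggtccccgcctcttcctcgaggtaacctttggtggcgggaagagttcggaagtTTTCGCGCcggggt
MCM7: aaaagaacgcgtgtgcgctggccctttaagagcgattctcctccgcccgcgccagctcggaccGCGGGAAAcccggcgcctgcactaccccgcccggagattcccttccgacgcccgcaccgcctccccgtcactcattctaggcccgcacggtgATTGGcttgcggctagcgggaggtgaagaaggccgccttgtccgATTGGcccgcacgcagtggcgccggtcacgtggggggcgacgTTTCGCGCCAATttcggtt
RRM2: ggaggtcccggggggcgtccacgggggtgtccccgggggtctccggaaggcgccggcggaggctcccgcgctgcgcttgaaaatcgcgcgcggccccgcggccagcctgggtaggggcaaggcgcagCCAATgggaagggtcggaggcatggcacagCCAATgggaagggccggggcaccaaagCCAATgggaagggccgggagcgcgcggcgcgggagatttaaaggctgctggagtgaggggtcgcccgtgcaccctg

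MCM3 and MCM7 each had 2 E2F motifs in this window, and TFDP1 had 1. Those of MCM3 began 174 and 4 bases before the start, those of MCM7 187 and 9 bases before it, and that of TFDP1 120 bases before it. In MCM7 the E2F motif nearest the start shares a base with a CCAAT box. The first RRM2 window had no E2F motif and 3 CCAAT boxes, which began 123, 93 and 66 bases before the start. MCM3 and MCM7 also had 3 CCAAT boxes each, and TFDP1 had none. Over the 35116 RefSeq windows of this length used here, 2.91% held an E2F motif and 0.137% held at least 2, while 32.7% held a CCAAT box and 3.02% at least 3. The table used also gave 2 further starts for MCM7 and 1 further start for RRM2, and their windows held no E2F motif and 1 CCAAT box each. A match of letters is a description of the window and not a measured binding site. Only the exact words given above were searched, so a window without them may still be bound by E2F.

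The values are log2 intensities, on the reading of the deposited values as natural logs, which was inferred from the values themselves. The difference is the knockdown array minus the control array. All genes and all probe sets here mean those in the table, and how these were chosen was not analysed. Over them the knockdown array was the brighter one, with a median intensity of 507 against 422 on the control array. The median of the gene means was 0.29 higher in the knockdown (log2, 1.22-fold) over the 2742 genes with at least 4 probe sets. Differences are given both as deposited and relative to this median gene, and the text says which. A gene was counted past the threshold when its mean over probe sets was at least 1.5-fold from the median gene, and a probe set at 2-fold. The SD beside a mean is that over the probe sets of the gene on the same 2 arrays and says nothing of the spread between cultures. Of 16 hepatocyte and hepatoma markers, 7 were in the table, ALB and APOB among them. Their mean log2 intensities were 9.77 to 12.92 on the knockdown array and 8.84 to 12.64 on the control array. Of 10 markers of fibroblasts, endothelium and leukocytes, only COL1A1 and PDGFRB were in the table. They lay at 7.89 and 8.17 on the knockdown array and 8.51 and 7.66 on the control array. A marker outside the table has no level here, so these values do not settle the identity of the cells.

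TFDP1 had the largest difference of the 5 genes and was lower on the knockdown array. All 11 of its probe sets had the lower intensity there, both as deposited and relative to the median gene. Across the 11, log2 intensity ran from 7.46 over a median of 8.28 to 10.43 on the knockdown array, against 8.18, 9.25 and 11.27 on the control array. The mean difference was -0.82 ± 0.34 as deposited, so that the knockdown level was 56.5% of control. Relative to the median gene it was -1.11, or 46.3% of control.

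The 11 probe sets of TFDP1 differed in size more than in direction. Probe set 3502790 had a log2 intensity of 8.08 in the knockdown and 9.45 in the control, the largest deposited difference of the gene at -1.37. Probe sets 3502785 and 3502763 both lay near it, at -1.21 as deposited, with 8.49 and 7.46 in the knockdown and 9.70 and 8.66 in the control. Probe set 3502788, among the brightest, had 10.14 in the knockdown and 11.27 in the control. These 4 were also the ones at least 2-fold lower as deposited, where 0.251% of all 42575 probe sets with 1 gene symbol were. The smallest difference was at probe set 3502719, with log2 intensities of 8.21 in the knockdown and 8.47 in the control. Relative to the median gene the range was -1.65 to -0.55, and 6 of 11 probe sets were at least 2-fold lower, against 1.14% of all such probe sets. Every probe set lay below the median gene for 9.12% of genes, and every probe set was lower as deposited for 2.15%.

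**Figure D1:**
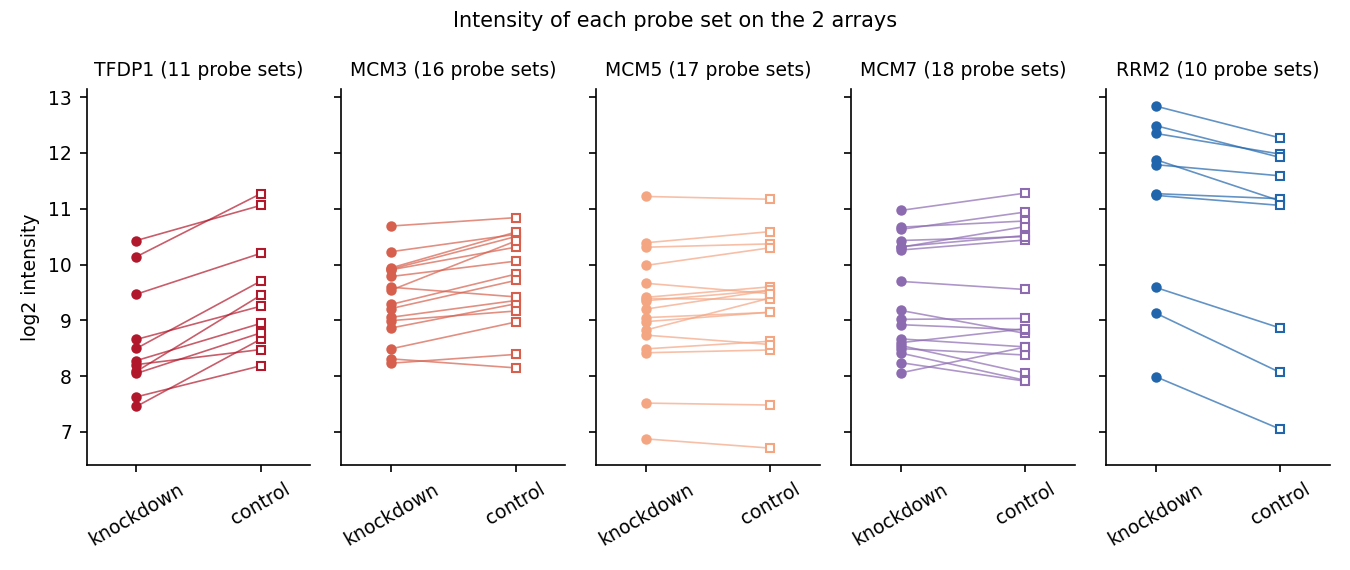
Log2 intensity of each probe set on the knockdown array (filled circles) and on the control array (open squares), with a line joining the 2 values of a probe set, for TFDP1, MCM3, MCM5, MCM7 and RRM2. All 11 lines of TFDP1 are lower at the knockdown end, all 10 of RRM2 are higher there, and those of the MCM genes lie between.

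The MCM genes, which encode helicase subunits, came next in order. In MCM3, 14 of 16 probe sets had the lower deposited intensity in the knockdown, as did 24.8% of all probe sets, and all 16 lay below the median gene, as did 52.3%. Its log2 intensity ran from 8.23 over a median of 9.41 to 10.69 in the knockdown, against 8.15, 9.77 and 10.84 in the control. The mean difference was -0.34 ± 0.28 as deposited, or 78.8% of control, and -0.63 relative to the median gene, or 64.7% of control. One probe set, 2957159, with 9.54 in the knockdown and 10.42 in the control, lay at least 2-fold below the median gene. Probe sets 2957138 and 2957145 were the exceptions, with 8.31 and 9.59 in the knockdown and 8.15 and 9.42 in the control, so that both were slightly brighter in the knockdown as deposited.

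MCM5 showed a smaller difference. Log2 intensity ran from 6.87 over a median of 9.20 to 11.22 in the knockdown, against 6.71, 9.40 and 11.17 in the control. As deposited, 11 of 17 probe sets were lower and 6 were higher, where 24.8% of all probe sets were lower. The mean was -0.10 ± 0.20, or 93.4% of control. Relative to the median gene all 17 lay below, as every probe set did for 9.12% of genes. They ran from -0.86 to -0.10, with a mean of -0.38. MCM5 thus had the smallest SD of the 5 genes and a mean as deposited that was smaller than that SD.

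The probe sets of MCM7 were split between both directions. Log2 intensity ran from 8.06 over a median of 9.10 to 10.97 in the knockdown, against 7.91, 8.94 and 11.28 in the control. As deposited, 10 of 18 probe sets were lower and 8 higher, where 24.8% of all probe sets were lower. The mean was -0.0028 ± 0.30, or 99.8% of control. Relative to the median gene 14 of 18 lay below, as did 52.3% of all probe sets, and the mean was -0.29. The range relative to the median gene was -0.75 to 0.21. In the RefSeq gene table MCM7 overlaps AP4M1, a gene of an adaptor complex, and contains the microRNA genes MIR25, MIR93 and MIR106B. In the same table a protein-coding locus, LOC124903219, lies inside TFDP1, and MIR4261, a snoRNA and the lncRNA LOC105373424 lie inside RRM2. Where the probe sets lie relative to any of these was not analysed here.

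RRM2 differed in the opposite direction. All 10 probe sets had the higher intensity on the knockdown array as deposited, as they did for 30.3% of genes. Log2 intensity ran from 7.99 over a median of 11.53 to 12.84 in the knockdown, against 7.05, 11.16 and 12.27 in the control. The mean difference was 0.55 ± 0.33 as deposited, or 1.46-fold. Relative to the median gene it was 0.26, or 1.20-fold, which is smaller than the SD over probe sets. On that scale 7 of 10 probe sets lay above and 3 below, where 52.3% of all probe sets lay below. Probe set 2469258 had 9.13 in the knockdown and 8.07 in the control and was the only one of the 72 at least 2-fold higher as deposited, against 3.1% of all probe sets. The brightest, 2469273, had 12.84 in the knockdown and 12.27 in the control, and the smallest difference was that of 2469276, with 11.27 in the knockdown and 11.18 in the control.

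**Figure D2:**
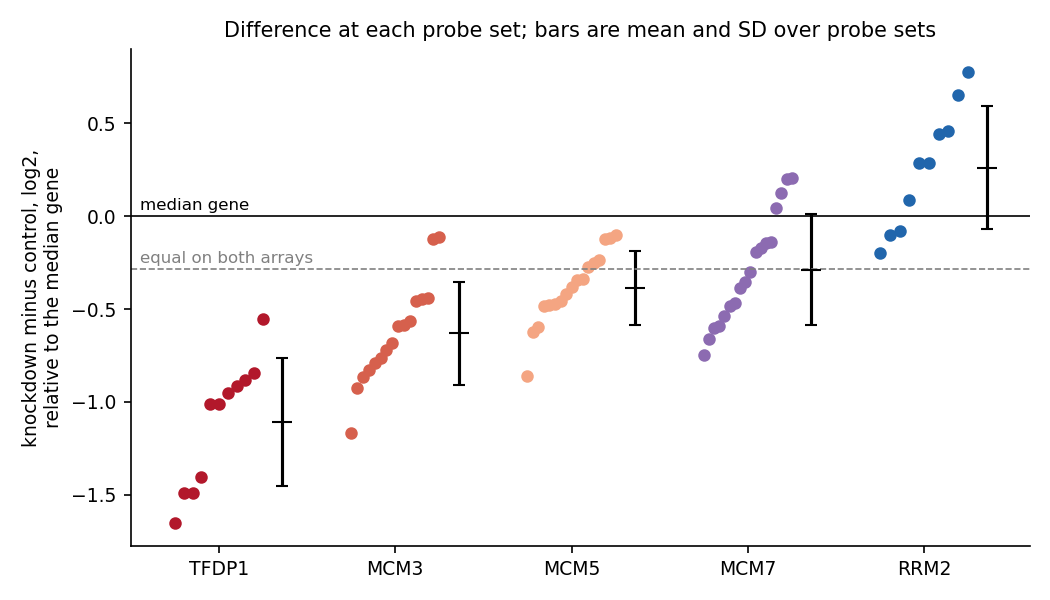
Knockdown minus control at each probe set (log2, relative to the median gene), sorted within each gene, with the mean and SD over probe sets as a black bar. The solid line is the median gene and the dashed line marks equal deposited intensity on both arrays. TFDP1 lies wholly below both lines, MCM3 and MCM5 wholly below the solid line only, and RRM2 wholly above the dashed line.

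Set side by side, the order of the mean differences from low to high was TFDP1, MCM3, MCM5, MCM7 and RRM2. No probe set of TFDP1 overlapped the range of RRM2, the highest TFDP1 value being -0.55 and the lowest RRM2 value -0.20 relative to the median gene. Between TFDP1 and MCM3 the means differed by -0.48, but the ranges overlapped: 4 of 11 TFDP1 probe sets lay below every one of MCM3. MCM5 and MCM7 were neighbours that did not differ beyond the SD over their probe sets, with a gap of -0.10. MCM3 and RRM2 differed by -0.89, and 14 of 16 MCM3 probe sets lay below the whole RRM2 range. Such counts were made only for pairs among these genes. How often other pairs of genes with means as far apart separate in this way was not tested.

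TFDP1, MCM3, MCM5 and MCM7 had means below 0 as deposited, that of MCM7 only barely, as had 16.6% of all genes. These genes and RRM2 were chosen with earlier results of these data known. The shares of all genes and probe sets here and above, and the ranks below, therefore describe the data and do not measure enrichment. TFDP1 and MCM3 had means at least 1.5-fold below the median gene, and the others did not pass 1.5-fold in either direction. Among all 2742 genes 3.65% were at least 1.5-fold lower and 2.26% at least 1.5-fold higher. MCM3, at 1.55-fold lower, was within 1.5-fold as deposited, at 1.27-fold. TFDP1 was also at least 2-fold lower, as were 0.365% of genes, although as deposited it was 1.77-fold lower. Counting itself, TFDP1 was 1 of 7 genes with a mean as low or lower. For MCM3 that number was 81, for MCM5 296 and for MCM7 450. RRM2 had 450 genes with a mean as high or higher. The means of MCM5, MCM7 and RRM2 lay within or near the SD of 0.30 of the gene means over all genes. The RNA on each array came from a whole culture, so fewer cells in S phase and less RNA per cell cannot be told apart.

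**Figure D3:**
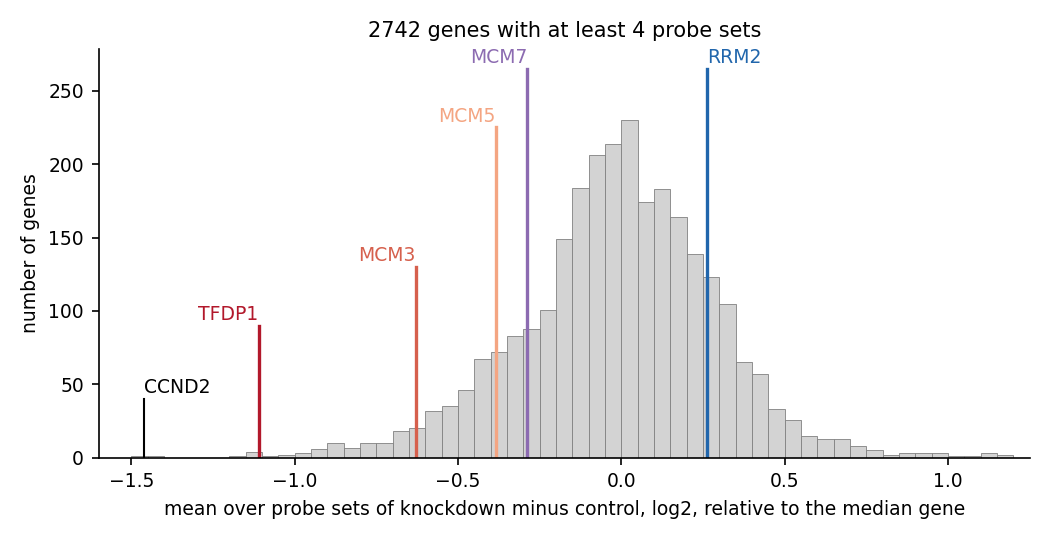
Number of genes (y axis) by mean knockdown minus control over probe sets (x axis, log2, relative to the median gene) for the 2742 genes with at least 4 probe sets; the coloured lines mark TFDP1, MCM3, MCM5, MCM7 and RRM2 and the black line CCND2, and the height of a line has no meaning. TFDP1 at -1.11 lies in the far low tail, and CCND2 at -1.46 is the lowest gene.

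The size of the difference varied with the brightness of the probe set in some of these genes. Each gene's probe sets were ranked by their mean over both arrays, and equal numbers of the brighter and the dimmer ones were compared. In MCM7 the 9 brighter probe sets all lay below the median gene, from -0.66 to -0.14 with a mean of -0.44, while the 9 dimmer ones ran from -0.75 to 0.21 with a mean of -0.13. As deposited, 8 of the 9 brighter and 2 of the 9 dimmer probe sets were lower on the knockdown array. MCM3 showed the same order, with a mean of -0.76 over its 8 brighter probe sets and -0.50 over its 8 dimmer ones. In TFDP1 the mean was -1.14 over the 5 brighter and -0.97 over the 5 dimmer probe sets. In MCM5 both means were -0.37, and in RRM2 they were 0.21 over the 5 brighter and 0.31 over the 5 dimmer probe sets. Over all 2742 genes the mean of the brighter minus that of the dimmer probe sets had a median of -0.08, with its outer deciles at -0.30 and 0.16. MCM7, at -0.31, lay just beyond the lower decile, and the other 4 genes, from -0.26 to -0.0053, lay between the deciles.

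In RRM2 the 3 dimmest probe sets had differences of 0.44, 0.65 and 0.78 relative to the median gene, and the 7 others a mean of 0.11 and a range of -0.20 to 0.46. The offset between the arrays itself changed little with brightness. With all probe sets cut into 5 equal bands of brightness, the median difference relative to the median gene was 0.020 in the dimmest band and -0.064 in the brightest. What sets the difference between bright and dim probe sets of 1 gene was not tested.

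**Figure D4:**
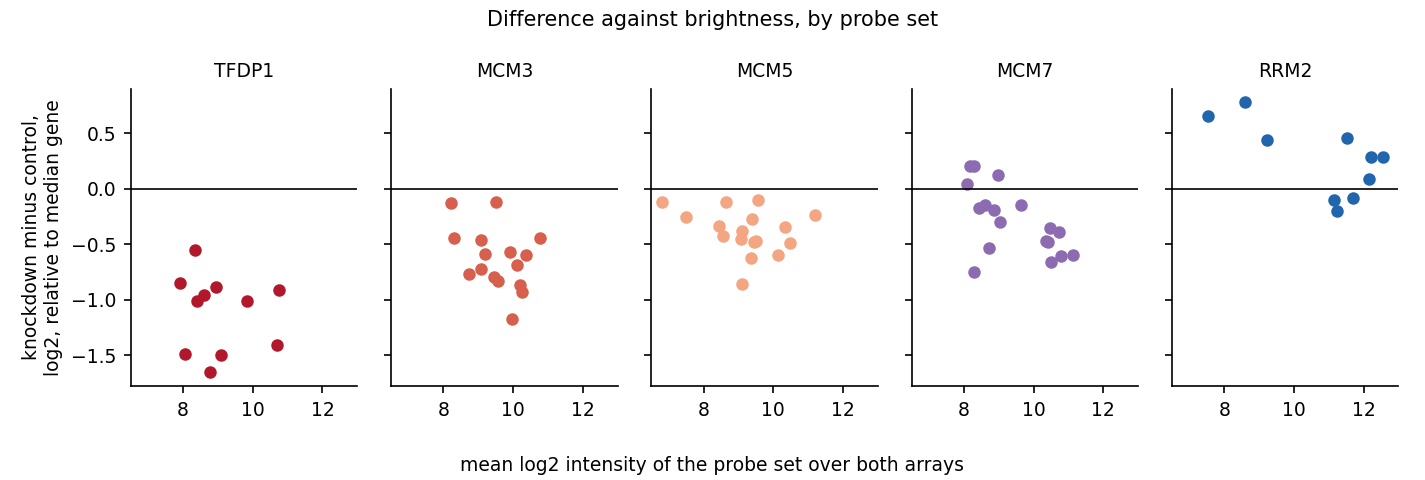
Knockdown minus control at each probe set (y axis, log2, relative to the median gene) against its mean log2 intensity over both arrays (x axis), in a panel per gene. The bright MCM7 probe sets lie lower than most of the dim ones, and the 3 dimmest RRM2 probe sets lie among the highest of that gene.

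The other genes of DNA replication and of the G1 to S transition were taken from 5 lists of 153 genes, of which the table held 46, the 5 genes included. Of the 41 others, 20 lay above and 21 below the median gene, with a median of -0.02, and 1 was at least 1.5-fold lower and 1 at least 1.5-fold higher, beside the 3.65% and 2.26% of all genes given above. Over all genes the median is 0 by construction. The probe set counts below stand beside 52.3% of all probe sets below the median gene. Every probe set lay below it for 9.12% of genes. As deposited, 36 of the 41 were higher on the knockdown array, as were 83.4% of all genes.

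Among the E2F, DP and pocket protein genes, TFDP1 was the only one past 1.5-fold. The 7 others in the table lay between -0.18 and 0.33 relative to the median gene, 6 of them above it. TFDP2, which encodes the other widely expressed DP partner, had a mean of 0.21 ± 0.22 with 7 of 8 probe sets above the median gene. Its median log2 intensity over probe sets on the knockdown array, 8.71, stood against 8.28 on the control array. E2F3, an activating E2F, lay at 0.33 ± 0.24 with 10 of 11 above. The pocket proteins RB1 and RBL1 both lay at 0.21, with SDs of 0.27 and 0.47, and RBL2 at -0.18 ± 0.28. FOXM1, a transcription factor of the later cell cycle, lay at 0.06 ± 0.31.

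CCND2, the D-type cyclin in the table, had the lowest mean of the 2742 genes with at least 4 probe sets there. Genes outside the table are not ranked, and the lists were chosen with earlier results of these data known. Across its 7 probe sets log2 intensity ran from 6.36 over a median of 7.52 to 7.67 on the knockdown array, against 7.41, 8.85 and 9.01 on the control array. All 7 were thus dim in the knockdown, under the median of 8.99 over all probe sets of that array. The difference was -1.18 ± 0.30 as deposited and -1.46 relative to the median gene, or 2.75-fold lower, with all 7 probe sets below it. Its kinase partner CDK6 lay at 0.10 ± 0.29, and FBXW7, the substrate receptor of a ubiquitin ligase for cyclin E, at 0.35 ± 0.34. CCND2 and TFDP1 were thus the lowest members of the lists, while other listed genes lay above or below the median gene by less.

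In the list of the MCM helicase and its loading partners, the 3 MCM genes were accompanied by 7 others, with 4 above and 3 below the median gene. MCMBP, which binds MCM subunits, was the gene at least 1.5-fold higher, at 1.51-fold, with a mean of 0.59 ± 0.31 and all 16 probe sets above the median gene. None of the 16 was lower as deposited, and every probe set was higher as deposited for 30.3% of genes. ORC4, a subunit of the origin recognition complex, lay at 0.35 ± 0.30. GINS1, part of the active helicase, lay at 0.31 ± 0.39, and the loading factor CDC6 at 0.18 ± 0.26. On the low side were MCM3AP, an mRNA export factor named for its binding to MCM3, at -0.29 ± 0.33, and TOPBP1, which helps to fire origins, at -0.22 ± 0.25. The other subunits of the ring, MCM2, MCM4 and MCM6, were on the list, but the table held no probe set assigned to their symbols alone.

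Of 12 genes of fork synthesis, 4 lay above and 8 below the median gene and none was past 1.5-fold. RPA1, the large subunit of the single-strand binding protein, lay at -0.42 ± 0.32 with 14 of 15 probe sets below. POLD2, a subunit of DNA polymerase delta, lay at -0.30 ± 0.20 with all 7 below, POLE at -0.26 ± 0.27 and POLA1 at -0.12 ± 0.30. The fork protection gene TIMELESS, at 0.29 ± 0.31, and the histone chaperone gene ASF1B, at 0.39 ± 0.35 over 4 probe sets, lay above.

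Nucleotide supply had 12 genes besides RRM2, 4 above and 8 below the median gene, with none past 1.5-fold. TK1, the thymidine kinase of S phase, was the lowest at -0.50 ± 0.36, with all 7 probe sets below the median gene. The CTP synthase CTPS1 and the mitochondrial folate enzyme MTHFD1L both lay at -0.21, with SDs of 0.19 and 0.20, and IMPDH1, of guanine nucleotide synthesis, at -0.18 ± 0.27. SHMT1, the cytosolic serine hydroxymethyltransferase, lay at 0.19 ± 0.17 and CTPS2 at 0.12 ± 0.31. RRM2, at 0.26, was the highest of the 13.

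**Figure D5:**
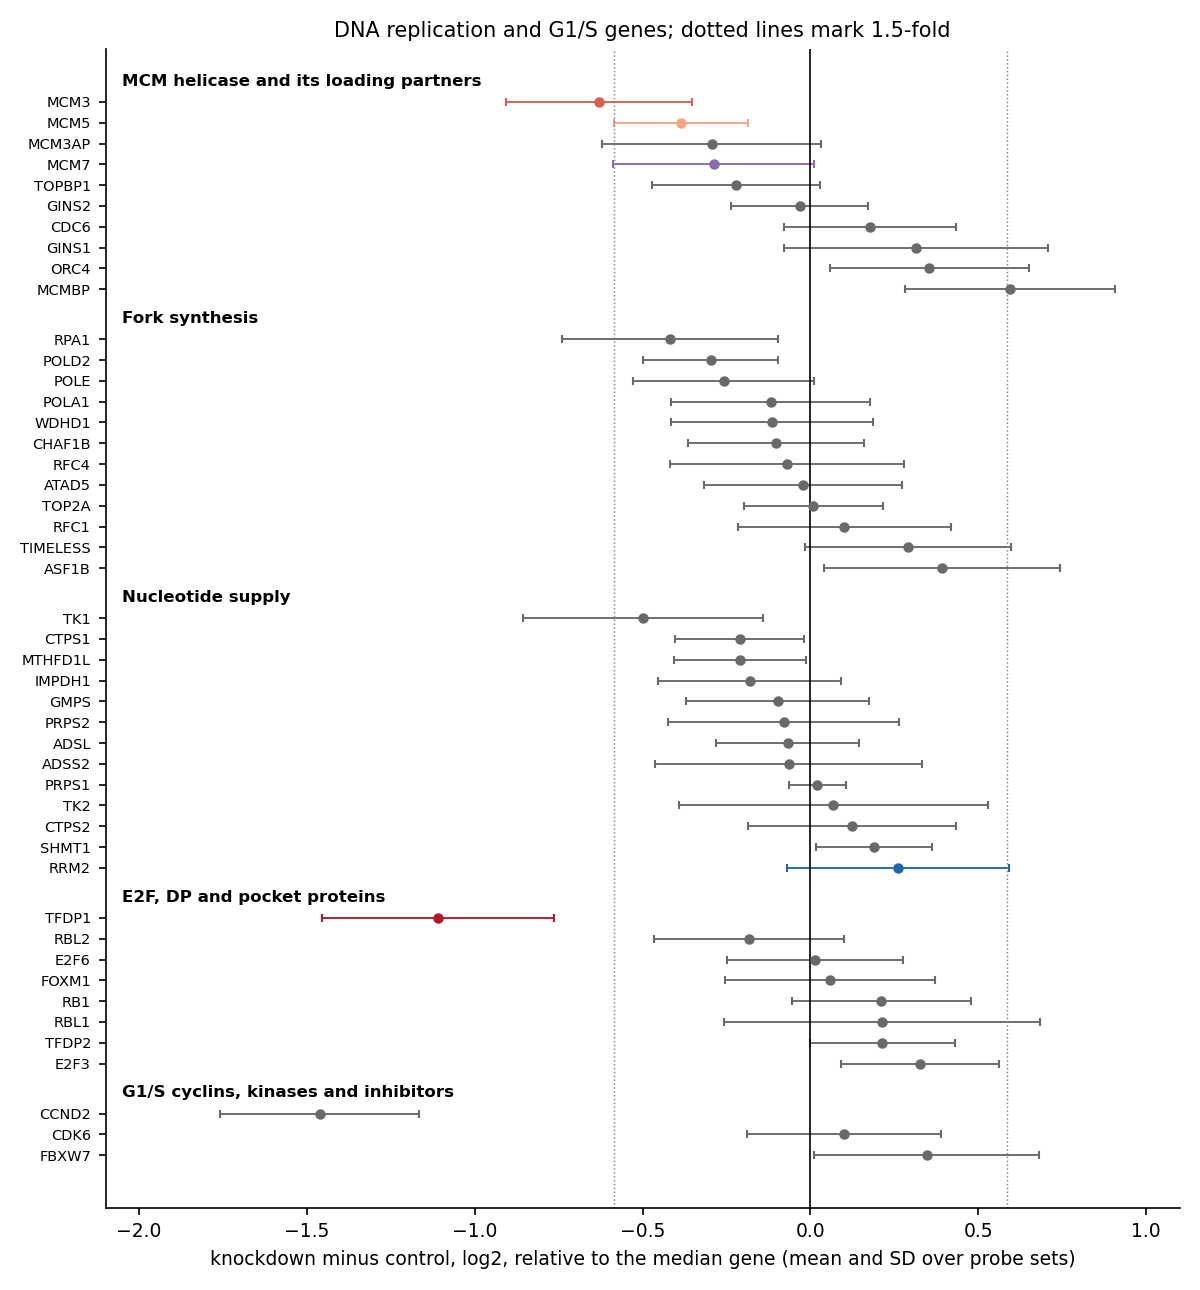
Mean and SD over probe sets of knockdown minus control (x axis, log2, relative to the median gene) for the 46 genes of 5 lists of DNA replication and G1 to S genes, sorted within each list, with dotted lines at 1.5-fold. TFDP1, MCM3 and CCND2 lie beyond the lower dotted line and MCMBP beyond the upper one.

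The genes with the most similar difference were looked up among genes of similar mean intensity, within 0.5 (log2), by the gap between mean differences over the 2 arrays. For TFDP1 they were TNRC6A, a scaffold of microRNA-guided silencing, at a gap of 0.08, and the endocytic adaptor gene DAB2, at 0.13. For MCM3 they were LRP5 and MAP1B, at gaps of 0.0011 and 0.0068 among 762 candidates. For MCM5 they were TCF20 and SMARCA4, for MCM7 PNPLA2 and NUP210, and for RRM2 ADGRG6 and ROBO1, all within 0.013. With 2 arrays the likeness is that of a single number.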

How the data were processed

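RNA of HepG2 cells was amplified and labelled with biotin through a whole-transcript kit, per the labels' protocols, and read on 1 array per condition. The authors deposited 1 value per probe set and array. Their normalization, summary and build were not given in the sources used here. These deposited values were read as natural log intensities because the remainders of their exponentials, after division by a fixed step, were uneven. With remainders counted in bins of equal width, the fullest bin held 1154 values on the knockdown array, against a mean of 82.7 per bin. On the control array it held 1167, against 84.2. Read as log2, the fullest bin held 117 and 115, against 90.4 on both arrays. Most values lay outside the fullest bin, so the scale is an inference from the values. Dividing by ln(2) put them on the log2 scale.

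Of 45200 probe sets, 42575 had 1 gene symbol, 1055 several and 1570 none; older symbols were updated through the RefSeq gene table. Gene differences are means over probe sets, centred on the median of genes with at least 4 probe sets. Design and groups came from the transfection label. With 1 array per condition the number of arrays limits the precision and no test was run. The named genes were the 5 members, up to 6 others per list by size of mean difference, and per member the 2 most similar genes. The members and lists were chosen with earlier results of these data known. Alternatives were no centring, quantile and loess normalization, brighter probe sets only, other gene summaries and values read as log2. Python 3.11.15, NumPy 2.4.6, pandas 2.3.3 and statsmodels 0.14.6 were used.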

Additional observations from a re-analysis of the deposited data

How the results depend on the processing

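The sign of the mean of TFDP1, MCM3, MCM5, MCM7 and RRM2 was the same under all 9 alternatives. Reading the values as log2 only rescales every difference, so it could not change a sign. For MCM7 as deposited, with 10 probe sets lower and 8 higher, the mean was too near 0 to give a direction. The mean of TFDP1 ranged from -1.13 to -0.77 and was past 1.5-fold in each, that of MCM3 from -0.72 to -0.34, that of MCM5 from -0.43 to -0.10, that of MCM7 from -0.51 to -0.0028 and that of RRM2 from 0.16 to 0.55. MCM3 was within 1.5-fold as deposited (-0.34), by its brightest probe set (-0.35), by its dimmer probe sets (-0.54) and with values read as log2 (-0.44), an alternative chosen after seeing the data. Each centred alternative used its own median gene, so the dimmer MCM3 probe sets stand at -0.54 here and at -0.50 in the Results. MCM5 was -0.10 as deposited and -0.15 by its brightest probe set. Without centring, 11 of 17 MCM5 probe sets and 0 of 10 RRM2 probe sets were lower, against 17 and 3, and the medians of 3 lists turned above 0: 0.16 for the helicase and its partners, 0.20 for fork synthesis and 0.22 for nucleotide supply, against -0.13, -0.09 and -0.07. Over brighter probe sets alone, 5 TFDP1 probe sets remained, all below the median gene. The genes past 1.5-fold, 100 lower and 62 higher, became 25 and 359 without centring, 188 and 144 by the brightest probe set, and 29 and 16 with values read as log2. No paired analysis was possible because each condition had 1 array and no replicate numbers in the labels. For the same reason no array could be left out.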
